A study of Mus musculus with 48 samples.

Results

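S100g, Fabp3, Cited1, Car4, Pitx1 and Rbp4 are 6 mouse genes whose transcripts mark one set of V580_D6 cells, that is, embryonic stem cells (ESCs) treated for 6 days with V580. They were taken by symbol or Ensembl identifier, 6 of the 32285 genes of the single-cell table, and were chosen by their UMI counts in those day 6 cells, where they stood together. The single-cell values below therefore describe the choice and are no test of it. The rule of the choice did not use bulk values, although earlier results of these data were known when the members were chosen. The bulk V580_D6 libraries share the treatment and day of those cells, so a high level there is not independent of the choice.

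The study asked whether small molecules turn ESCs into cells like the gonadal somatic cells of the E12.5 female embryo. All samples are labelled C57BL/6. V580 is vitamin C (Vc) combined with AM580, a synthetic agonist of retinoic acid receptor alpha, and Con is the ESC culture without either compound. Con, Vc, AM580 and V580 were sampled at 24 h and 48 h with 2 libraries each, V580_D4, V580_D6, V580_D8 and V580_D10 with 3 libraries each, and E12.5_GC, cells separated from E12.5 female gonads, with 3 libraries. The stage libraries, 2 per stage, came from gonadal somatic cells of female E12.5, E13.5 or E16.5 embryos and from ovary somatic cells of 6-week-old mice (P6w). A single labelled sample of V580_D6 cells was measured with 10x single-cell RNA-seq. In the study's methods, fetal gonadal somatic cells are what remains after magnetic removal of SSEA1-positive germ cells, so that blood and vessel cells of the gonad may be among them, and the induced cells were likewise taken as the SSEA1-negative fraction when they were used for aggregation. The labels do not say whether libraries of a group came from separate cultures or animals, so the p values measure the spread between these libraries, which may be technical.

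S100g, also called calbindin-D9k, is a small calcium-binding protein that carries calcium through the cytoplasm of absorbing epithelia and is made in gut, kidney, uterus and placenta. Fabp3 binds long-chain fatty acids in the cytoplasm, most of all in heart and muscle. Cited1 binds the coactivators CBP and p300, lacks a DNA-binding domain of its own and is known from trophoblast and kidney progenitors. Car4 is a carbonic anhydrase anchored to the outer cell surface. Pitx1 is a homeodomain transcription factor of the hindlimb and the pituitary. Rbp4 carries retinol in blood and is made by the liver and the visceral yolk sac, an extraembryonic endoderm epithelium that takes up and secretes nutrients.

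In the GENCODE vM21 annotation of GRCm38, S100g lies on the minus strand at chrX:162961992-162964599, Cited1 on the minus strand at chrX:102247381-102252181, Fabp3 on the plus strand at chr4:130308595-130315463, Car4 on the plus strand at chr11:84957786-84966044, Pitx1 on the minus strand at chr13:55825051-55836192 and Rbp4 on the minus strand at chr19:38116629-38125281. 3 promoters are shown because S100g and Cited1 changed together in the bulk libraries, whereas Fabp3 did not change with them. Each is read from RefSeq sequence of GRCm38.p6, 5′ to 3′ on the gene's own strand, from 150 bases before the annotated start to 20 bases after it. Capitals mark the TATA motif TATAAA and the nuclear receptor core motif. The second reads AGGTCA, or its complement on the other strand. The S100g window is chrX:162964580-162964749, the window of the first Cited1 start is chrX:102252162-102252331 and the Fabp3 window is chr4:130308588-130308757.
S100g: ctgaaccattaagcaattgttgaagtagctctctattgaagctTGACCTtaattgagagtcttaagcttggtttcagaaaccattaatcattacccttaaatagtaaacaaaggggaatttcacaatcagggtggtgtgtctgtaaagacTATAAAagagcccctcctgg
Cited1: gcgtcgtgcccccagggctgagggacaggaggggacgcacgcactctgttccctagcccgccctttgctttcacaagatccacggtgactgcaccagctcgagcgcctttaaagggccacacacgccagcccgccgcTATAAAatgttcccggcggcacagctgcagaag
Fabp3: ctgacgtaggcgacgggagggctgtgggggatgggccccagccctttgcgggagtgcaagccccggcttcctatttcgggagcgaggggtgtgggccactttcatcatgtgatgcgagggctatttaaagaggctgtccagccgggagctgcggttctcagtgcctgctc

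Motifs were searched on both strands from 250 bases before to 50 bases after each start. AGGTCA occurred at positions -220 to -215 and -107 to -102 of the S100g window, at -217 to -212 of the window of the third Cited1 start, and in 16.3% of 32851 mouse promoters of that length. TATAAA occurred in windows of S100g, Cited1, Car4 and Rbp4 and in 13.6% of all promoters. It lay at positions 1 to 6 in S100g and 43 to 48 in Car4. In Cited1 it lay at -13 to -8 of the first start and -115 to -110 of the second, and in Rbp4 at -28 to -23 of the second start. The Fabp3 window held neither exact motif, and variants of them were not searched. Direct repeats spaced by 1, 2 or 5 bases, the forms known for retinoic acid receptors, were searched with the looser core [AG]G[GT]TCA. They were in no member window and in 0.222%, 0.268% and 0.0974% of all promoters. GC content of the shown windows was 38.2% for S100g and 63.5% for both Cited1 and Fabp3. These matches describe letters in a window and not binding.

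S100g, Fabp3, Cited1 and Pitx1 were listed in the deposited table of FPKM (fragments scaled to transcript length in kilobases and to library depth), and Car4 and Rbp4 were not among its 13682 genes. The 31 libraries of that table rested on 16442640 to 28312704 fragments each. S100g and Pitx1 were nearly absent from the treatment libraries and reached the filter through the V580 days, so a difference between some groups was bound to be seen for them.

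S100g had the widest range of the 4. In the 12 libraries of Con and Vc at either time and of AM580 and V580 at 24 h, S100g had 0 fragments, which over their joint depth allows up to 0.0130 CPM (counts scaled to a common library total). At 48 h S100g stood at 1.06 and 0.660 FPKM with AM580 and at 0.521 and 0.798 FPKM with V580. In V580_D4 it stood at 2.65, 2.61 and 1.56 FPKM. S100g was thus low but present in these 7 libraries. In V580_D6 it stood at 76.0, 60.1 and 71.7 FPKM, in V580_D8 at 163, 161 and 143 FPKM, and in V580_D10 at 66.7, 89.7 and 73.3 FPKM. The day 8 libraries were the highest, and the day 6 and day 10 libraries overlapped. E12.5_GC held 0.0750, 0.0888 and 0 FPKM, which correspond to 2 fragments of S100g in all 3 libraries.

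Pitx1 lay between 0.143 and 0.832 FPKM in the 16 treatment libraries and at 0.461, 0.177 and 0.404 FPKM in E12.5_GC. In V580_D4 it stood at 1.75, 2.02 and 1.73 FPKM, in V580_D6 at 23.5, 22.04 and 24.4 FPKM, in V580_D8 at 54.9, 50.7 and 48.2 FPKM, and in V580_D10 at 71.7, 73.6 and 81.1 FPKM. Pitx1 was thus higher on each sampled V580 day than on the day before it, with no overlap between the libraries of neighbouring days.

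Cited1 was low but present throughout the treatments, from 1.61 FPKM with V580 at 24 h to 5.18 FPKM with AM580 at 48 h. It stood at 2.95, 2.70 and 3.09 FPKM in V580_D4, at 19.7, 16.9 and 18.6 FPKM in V580_D6, at 33.6, 31.6 and 29.9 FPKM in V580_D8, and at 31.2, 28.9 and 31.1 FPKM in V580_D10. Cited1 in the day 8 and day 10 libraries overlapped. E12.5_GC had 1.64, 1.09 and 0.611 FPKM of Cited1.

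Fabp3 took another course. It was well expressed before any of the others, at 43.7 to 51.6 FPKM in the 8 libraries of 24 h, and highest in V580_D4 at 162, 143 and 140 FPKM. V580_D6 held 78.3, 67.3 and 73.1 FPKM, V580_D8 57.9, 58.5 and 53.0 FPKM, and V580_D10 83.8, 74.97 and 79.7 FPKM. E12.5_GC was the lowest group for Fabp3, at 7.78, 14.8 and 8.56 FPKM. Day 4 was therefore the peak of Fabp3, whereas S100g, Pitx1 and Cited1 were lower on that day than on each later one, and Cited1 was within its range over the treatments.

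**Figure D1:**
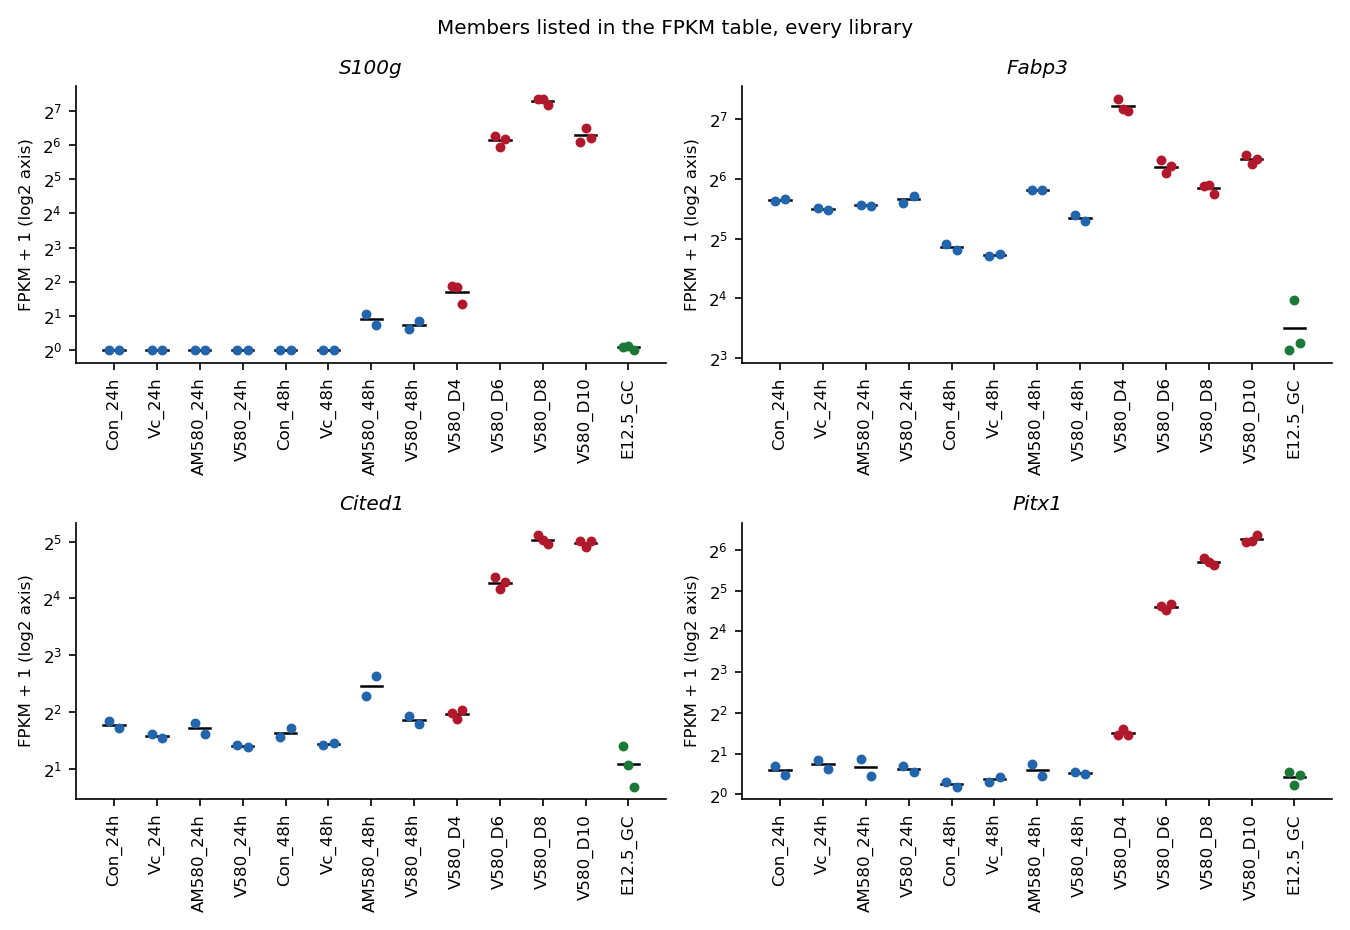
FPKM + 1 on a log2 axis for S100g, Fabp3, Cited1 and Pitx1 in each of the 31 libraries (points) with group means (bars); blue marks the 24 h and 48 h treatments, red the V580 days and green E12.5_GC. S100g, Cited1 and Pitx1 step up between V580_D4 and V580_D6, while Fabp3 is highest in V580_D4.

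The first question was whether the group, chosen in single cells of day 6, also changed around day 6 in bulk libraries. Changes were tested with limma on log2(FPKM + 1), a scale that understates the change of low genes, in one model of the V580 days and E12.5_GC, and called at a Benjamini-Hochberg adjusted p below 0.05 and at least 2-fold. From V580_D4 to V580_D6 the 4 listed members were all called, 3 higher and 1 lower, where 5.08% of the 11512 tested genes were called (3.41% higher and 1.67% lower). A high level on day 6 is not independent of the choice, so this count is no test of the group. S100g rose by 4.43 ± 0.14 (log2, SE; adjusted p = 8.88e-12), Pitx1 by 3.10 ± 0.09 (adjusted p = 2.43e-12) and Cited1 by 2.31 ± 0.13 (adjusted p = 3.13e-09). Fabp3 fell by 1.01 ± 0.16 on the log2 scale (adjusted p = 1.14e-04), a change at the 2-fold limit that was -0.95 without replicate 1 of V580_D4 and -0.96 without replicate 2 of V580_D6, under the limit both times. In bulk samples a gene that rises because more cells express it and one that rises because each cell makes more RNA cannot be told apart.

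From V580_D6 to V580_D8, S100g and Pitx1 rose again, by 1.16 ± 0.14 (adjusted p = 1.08e-05) and 1.102 ± 0.085 (adjusted p = 2.03e-07), while 2.29% of all genes were called higher. Cited1 differed by 0.76 with an adjusted p of 3.16e-04 in limma and stayed under 2-fold, and Fabp3 differed by -0.36 with an adjusted p of 0.0834. From V580_D8 to V580_D10 the direction of S100g turned. S100g fell by 1.02 ± 0.14 on the log2 scale (adjusted p = 6.04e-05), where 0.321% of all genes were called lower. That call rests on the 2-fold limit: the value was -0.93 or -0.998 without replicate 1 or 3 of V580_D10 and -0.989 or -0.997 without replicate 1 or 2 of V580_D8. Pitx1 differed by 0.55 (adjusted p = 2.24e-04) and Fabp3 by 0.49 (adjusted p = 0.0288), both under 2-fold where 34.5% of all genes passed the p value alone, and Cited1 by -0.06 with a 95% interval of -0.33 to 0.22 (adjusted p = 0.766).

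**Figure D2:**
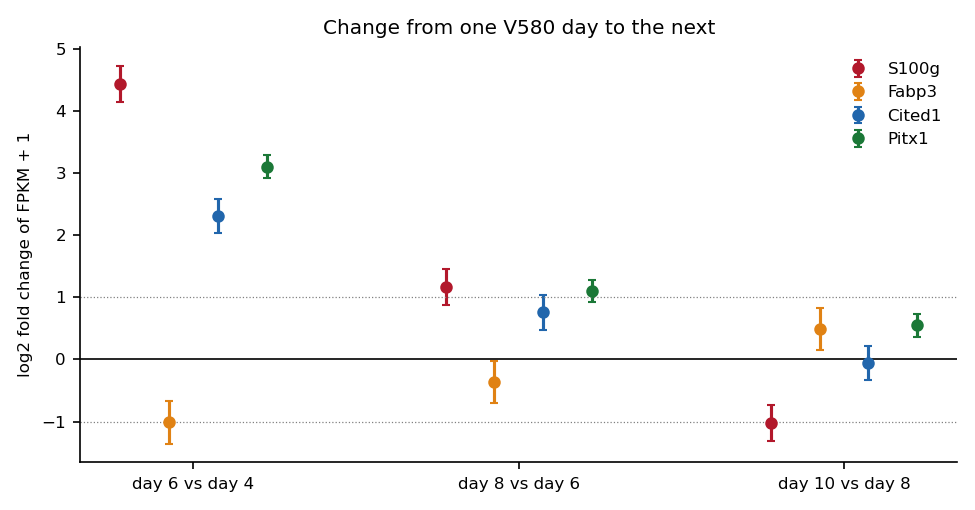
log2 fold change of FPKM + 1 with 95% intervals (bars) of S100g, Fabp3, Cited1 and Pitx1 from each V580 day to the next; dotted lines mark 2-fold. S100g is at 4.43, 1.16 and -1.02 in turn, and Fabp3 is the only one of the 4 below 0 in the first step.

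Against E12.5_GC, the fetal cells that V580 was meant to resemble, the 4 members were higher in the induced cells. The calls were 3 of 4 in V580_D4, where 9.13% of all genes were called higher, and 4 of 4 in V580_D6, V580_D8 and V580_D10, where 7.06%, 6.9% and 9.16% were called higher. S100g and Pitx1 reached the filter only through the V580 days, and the members were chosen for their counts in V580_D6 cells. Calls of higher were therefore largely fixed beforehand, and the counts are no test of the group. In V580_D6 the differences in log2(FPKM + 1) were 6.05 for S100g, 4.18 for Pitx1, 3.22 for Cited1 and 2.75 for Fabp3. Fabp3 was the member with the largest difference on day 4, at 3.76, and Cited1 stood at 0.92 there and missed the 2-fold limit, which it passed at 1.09 without the first E12.5_GC library. Pitx1 was called in V580_D4 at 1.08 and stood at 0.98 without the second E12.5_GC library. These 4 comparisons share the same 3 E12.5_GC libraries.

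Because E12.5_GC held only 2 fragments of S100g, its ratios were also taken on fragments recovered from the FPKM steps. S100g relative to library depth was 38.6 times the E12.5_GC level in V580_D4 (95% interval 10.3 to 325), 1179 times in V580_D6 (326 to 9739), 2634 times in V580_D8 (729 to 21754) and 1322 times in V580_D10 (366 to 10919). These intervals cover counting error only. E12.5_GC differed from V580_D6 in its cell makeup too. The gonadal genes Nr5a1 and Lhx9 were lower in V580_D6 by -6.24 and -5.02 (log2), and the haemoglobin gene Hba-a1 stood at 2190 ± 1633 FPKM (SD, n = 3) in E12.5_GC against 0.0369 ± 0.0639 in V580_D6. Higher in V580_D6 were 8 of 8 epithelial markers, with a median of 3.72 and Cdh1 at 5.63, and 4 of 8 extraembryonic endoderm markers, with Foxa2 at 3.97, and of 5 trophoblast and amnion markers 2 were higher, among them Trap1a at 6.01, and 2 lower. Their part in the member differences was not tested.

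The treatments asked how early each compound moved these genes. Only Fabp3 and Cited1 passed the filter in the 16 treatment libraries, and in limma 0 of these 2 were called at 2-fold in the contrasts given here. Of all 10644 genes tested, 0.0846% were called for Vc, 0.404% for AM580 and 0.695% for V580 against Con at 24 h and 0.366% for V580 against Vc. At 48 h the share was 0.047% for Vc, 3.23% for AM580 and 3.18% for V580 against Con, 0.263% for V580 against AM580, 2.79% for V580 against Vc and 0.122% for the interaction. Between 24 h and 48 h it was 7.72% in Con, 8.16% in Vc, 7.37% in AM580 and 8.01% in V580. The changes that passed an adjusted p of 0.05 in limma were smaller. Fabp3 stood at 29.2 and 27.1 FPKM in Con_48h, at 25.3 and 25.7 in Vc_48h, at 55.3 and 55.0 in AM580_48h and at 41.3 and 38.4 in V580_48h. AM580 and V580 libraries were thus above both other groups, and AM580 alone above V580.

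In log2(FPKM + 1), Fabp3 was higher than in Con_48h by 0.95 ± 0.05 with AM580 (adjusted p = 5.02e-10), where 57% of all genes passed the p value alone, and by 0.49 ± 0.05 with V580 (adjusted p = 7.65e-07), where 57.1% did. Cited1 was higher by 0.82 ± 0.10 with AM580 (adjusted p = 8.58e-06) and differed by 0.22 ± 0.10 with V580 (adjusted p = 0.0753). V580 against AM580 alone, the contrast that adds Vc, gave -0.46 for Fabp3 (adjusted p = 1.18e-05) and -0.60 for Cited1 (adjusted p = 8.55e-04), and 19.2% of all genes passed that p threshold. Against Vc alone V580 gave 0.62 for Fabp3 and 0.42 for Cited1, with adjusted p values of 6.78e-08 and 0.00307 and 53.8% of all genes past that threshold. The interaction of Vc and AM580 at 48 h was -0.32 for Fabp3 (adjusted p = 0.0152), where 3.61% of all genes passed, and -0.40 for Cited1 (adjusted p = 0.171). An edgeR fit on recovered fragments gave that Fabp3 interaction an adjusted p of 0.0874.

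At 24 h Fabp3 gave -0.15 with Vc against Con (adjusted p = 0.0491), where 13.6% of all genes passed the p value, and 0.16 with V580 against Vc (adjusted p = 0.0328), where 16.9% did. Cited1 gave -0.37 with V580 against Con (adjusted p = 0.0130), where 29% did. In edgeR on recovered fragments the Fabp3 differences had adjusted p values of 0.119 and 0.0641 in turn. That of Cited1 had 0.0386. Between 24 h and 48 h Fabp3 changed by -0.79 in Con and -0.77 in Vc, by -0.31 in V580 and by 0.25 in AM580, each at an adjusted p of at most 3.10e-04 in limma, where 66%, 67.7%, 66.8% and 65.7% of all genes passed in turn. Cited1 changed by 0.74 in AM580 and 0.45 in V580, and by -0.14 in Con (adjusted p = 0.235).

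S100g at 48 h had 16 recovered fragments in the AM580 libraries and 12 in the V580 libraries. Set against a floor of 3 fragments over both Con_48h libraries, these levels were 5.66 and 4.28 times as high. Those values leave out the counting error of the 16 and 12 fragments and are no lower limits. V580 and AM580 were not distinguishable for S100g, with a ratio of 0.756 (95% interval 0.326 to 1.70). For Pitx1, which failed the FPKM filter, an edgeR fit on recovered fragments gave 1.53 with AM580 at 48 h (adjusted p = 0.0129) and 1.28 with V580 (adjusted p = 0.0400) against Con_48h. In that fit Pitx1 also fell by 1.46 in Con from 24 h to 48 h on the log2 scale (adjusted p = 0.0139), and the 48 h Con libraries were the lowest of all, at 0.143 and 0.227 FPKM.

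V580_D4 was set beside V580_48h in one model of all 31 libraries, although the days and the hours may be separate experiments, which cannot be told apart from the time between them. Fabp3 rose by 1.87 ± 0.14 (adjusted p = 2.90e-11) and was the member called, 1 of 4, while 9.36% of 11921 genes were called higher. Pitx1 and S100g stood at 0.97 each with adjusted p values of 8.08e-08 and 6.06e-07, just under 2-fold, where 74.1% of all genes passed the p value alone, and Cited1 at 0.11 (adjusted p = 0.457). On recovered fragments the ratio for S100g was 3.48 (95% interval 1.88 to 7.02).

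Across the 31 libraries the genes closest to S100g in log2(FPKM + 1), among 9050 genes compared, were Pitx1 (Pearson r = 0.98), Cited1 (0.98) and Nfe2l3 (0.97). Closest to Pitx1 were the protease gene Prss12 (0.99), the axon guidance ligand Slit3 (0.98) and S100g. Close to Cited1 were S100g (0.98) and Pitx1 (0.97). Fabp3 was nearest to the polarity gene Pard6b (0.94), Tnfrsf10b (0.93) and the epithelial factor Elf3 (0.93), and its r with S100g, Cited1 and Pitx1 was 0.456, 0.484 and 0.451. The libraries share treatments and days, so these correlations describe the design as much as the genes.

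The other genes of each member's family were read from fixed lists. From V580_D4 to V580_D6, of 8 tested S100 genes only S100g was called, with a list median of -0.16 against -0.01 over all genes. Of 7 tested genes of epithelial calcium transport S100g and the plasma membrane calcium pump Atp2b4 were called, both higher, and Atp2b4 rose by 1.02. Of 9 genes of fatty acid binding and uptake, Cpt1a, which admits fatty acids to mitochondria, rose by 1.45 and Fabp5 by 1.37, whereas Fabp3 fell. Of 11 carbonic anhydrases and bicarbonate transporters Car14 rose by 1.08 and Car12 by 1.00, and of 8 CITED genes and partners Cited1 alone was called. Of 3 tested genes in the Pitx list Pitx1 alone was called. Of 4 retinol carriers the retinol dehydrogenase Rdh10 rose by 1.70 and the retinoic acid carrier Crabp2 fell by 2.61, and of 9 retinoic acid targets 2 were higher and 2 lower, among them Hic1 at 2.41 and the retinoic acid hydroxylase Cyp26a1 at -1.79. Markers of other cell types were read in the same step. Of these, 0 of 8 extraembryonic endoderm markers were called, with a median of 0.48, 1 of 8 epithelial markers was lower, 1 of 5 trophoblast and amnion markers, 3 of 9 granulosa and gonad, 3 of 5 mesothelial and 4 of 5 interstitial markers were higher, and of 5 endothelial markers 2 were higher and 1 lower. Their part in the member changes was not tested.

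With V580 at 48 h, 5 of 8 tested retinoic acid targets were higher than in Con_48h and 0 lower, with a median of 1.32 against -0.02 for all genes. Cyp26a1 rose by 6.04, Dhrs3 by 2.71 and Rarb by 1.46. In the list of retinol carriers the retinol transporter Stra6 rose by 1.43. Of the member families, 0 of 7 S100 genes and 0 of 7 CITED genes and partners were called, the carbonic anhydrases Car2 and Car9 rose by 1.49 and 1.40, and the fatty acid transporter Slc27a2 fell by 2.64.

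The 10x sample held 15412 distinct barcodes, and 15315 remained after those under 200 genes or over 40% mitochondrial UMIs (unique transcript counts) were dropped, with a median of 9281 UMIs. The labels give 1 sample and the barcodes all carry the same suffix, while the study's text speaks of replicate 10x runs, so whether the table pools several is not known. It was treated as 1 sample, no test was made, and the intervals below cover counting error only. The cells fell into 12 clusters. Cluster 6, with 1009 cells or 6.59% of those kept, had the highest summed level of the 6 members, and its 10 leading genes by fold over other cells were Cited1, S100g, Tdh, Pitx1, 2210011C24Rik, Spink1, Psph, Fabp3, Myl7 and Nup62cl. Its cells were shallow, with a median of 2214 UMIs, and the cluster is left without a cell type name.

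Cluster 7, with 928 cells, was almost as rich in the members and much deeper, with a median of 22737 UMIs. It was led by Glipr1, Habp2, Srgn, Cubn, B4galnt2, Klb, Ttr, Hs3st1, Rbp4 and Scube2, among which the endocytic receptor Cubn, the carrier Ttr and Rbp4 are known from visceral endoderm. The fixed list of extraembryonic endoderm markers was mixed in cluster 7. Sox17, Cubn and Foxa2 were detected in 81.6%, 80.3% and 72.0% of its cells, but Hnf4a, Amn and Afp in 13.9%, 8.19% and 2.05%. The 2 clusters together held 12.6% of cells and 16.3% of all UMIs but 89.7% of Pitx1, 88.0% of S100g, 85.7% of Rbp4, 84.3% of Cited1, 77.9% of Car4 and 65.3% of Fabp3 UMIs.

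In cluster 6, S100g stood at 898 CPM of UMIs (95% interval 866 to 930) and in cluster 7 at 669 (658 to 679), while the other 10 clusters had 12.03 to 112. Cited1 stood at 880 and 539 CPM against 11.02 to 140 elsewhere, and Pitx1 at 383 and 367 against 4.29 to 94.0. Car4 and Rbp4 were higher in cluster 7, at 770 and 720 CPM, than in cluster 6, at 657 and 492. These 5 members were thus concentrated in the same 2 clusters, with cluster 9 the highest of the rest.

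Fabp3 was the least restricted. It stood at 1170 CPM in cluster 6 and 990 in cluster 7, and at 844 in cluster 8, which was led by Serpinb9e, Serpinb9f, 1600025M17Rik and other genes that include Rhox9 and Tfap2c. Car4 also reached 373 in cluster 8 and 385 in cluster 9, which was led by Gm15261, Lama1 and Kit, and Rbp4 reached 264 in cluster 9. The extraembryonic endoderm markers summed to 5482 CPM in cluster 9, 2352 in cluster 7 and 1186 in cluster 6, against 179 to 583 in the other clusters. Lamb1, Lama1 and Dab2 were the largest parts of the cluster 7 sum, at 896, 579 and 341 CPM. The epithelial markers summed to 2078 CPM in cluster 6 and 2050 in cluster 7, within the 430 to 6480 of the other clusters, of which clusters 8, 5 and 11 were higher.

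**Figure D3:**
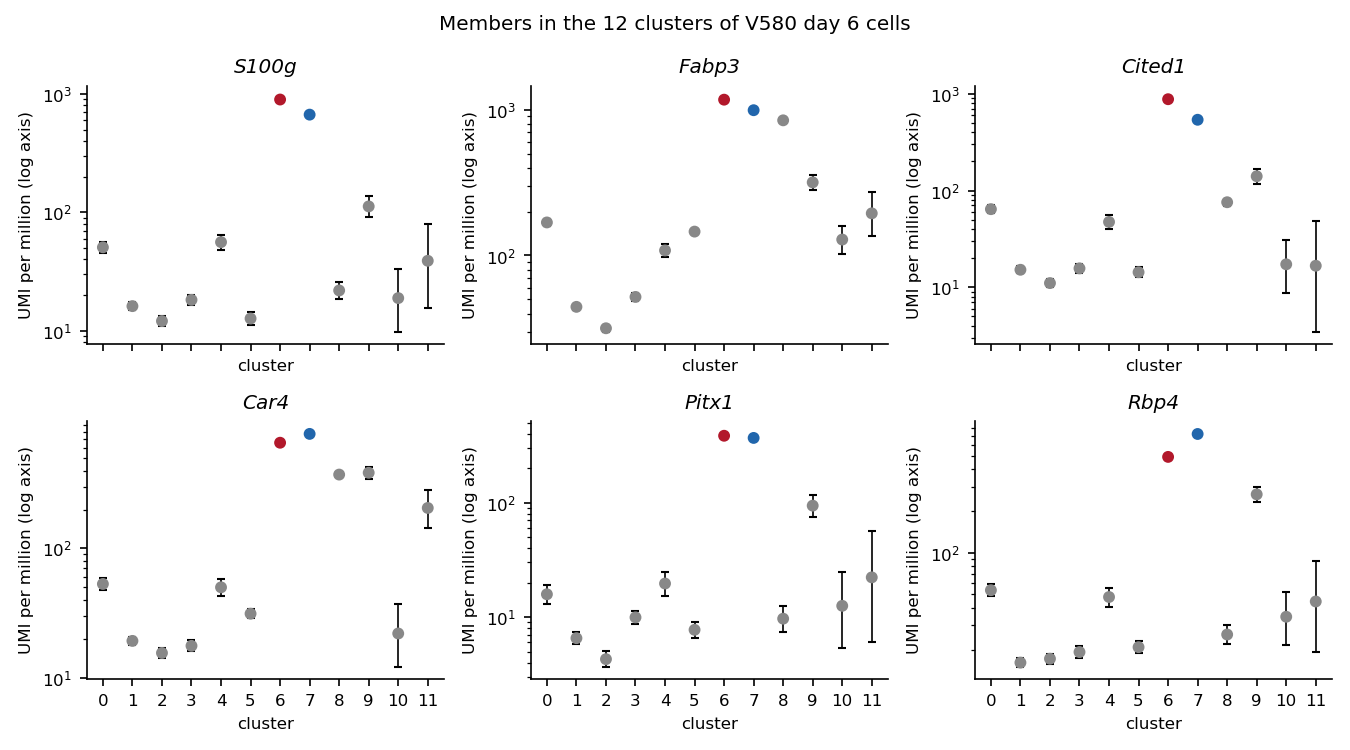
CPM of UMIs (log axis) of the 6 members in each of the 12 clusters of V580_D6 cells, with exact 95% Poisson intervals that cover counting error; red is cluster 6 and blue cluster 7. S100g, Cited1 and Pitx1 are at 367 to 898 in these 2 and at most 140 in the others, whereas Car4 reaches 385 and Rbp4 264 in cluster 9 and Fabp3 reaches 844 in cluster 8.

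At full depth S100g was detected in 50.8% of cluster 6 cells (exact 95% interval 47.7 to 54.0%) and 67.1% of cluster 7 cells, against 9.19 to 20% in the other clusters. Thinned to 5000 UMIs per cell, which left out 6238 shallower cells, S100g was detected in 72.5% of the 193 remaining cells of cluster 6 and 48.5% of the 881 of cluster 7. Thinning changed the cells as well as the depth, since 816 of the 1009 cells of cluster 6 and 47 of the 928 of cluster 7 were left out, so the 2 orders cannot be compared. In clusters 1, 2, 3 and 5, each with 1017 to 3004 remaining cells, the thinned share of S100g was 5.31 to 6.42%. In the remaining clusters outside 6 and 7, each with 9 to 246 remaining cells, it was 6.91 to 22.2%. They include clusters 0 and 4, where 3210 and 1215 shallower cells were left out. Whether free RNA in the droplets gave these shares was not tested. At the same depth Cited1 was detected in 92.2% and 74.1% of cells in clusters 6 and 7, Pitx1 in 66.3% and 47.3%, Car4 in 79.3% and 79.8%, Rbp4 in 68.9% and 77.5%, and Fabp3 in 96.9% and 94.8%. At least 3 of the 6 members were detected in 68.7% of cluster 6 cells, 96.1% of cluster 7 cells and 9.27% of all other cells at full depth, which differs between the clusters.

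Within cluster 7 the members split further. S100g ranged from 0 UMIs in 305 of the 928 cells to 387 UMIs in 1 cell, and the highest 10% of cells held 60.9% of its UMIs there. Cells with 10 or more S100g UMIs numbered 285. These had 841 CPM of Pitx1, against 44.3 in the 305 cells without S100g, 950 of Cited1 against 221, and 1293 of Car4 against 368. Rbp4 was at 776 against 573 and Fabp3 at 943 against 1157. Pitx1, Cited1 and Car4 were therefore richer in the S100g-rich cells, while Fabp3 was a little lower in them.

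Myl7, an atrial myosin light chain, stood at 493 CPM in the S100g-rich cells of cluster 7 against 56.9 in those without, and Tdh at 125 against 20.04. Spink1, which like them is among the leading genes of cluster 6, differed less, at 165 against 125, and the other leading genes outside the group were not read in this split. The endoderm factor Sox17 was at 206 against 124. Cubn was level at 159 and 158, and Srgn was lower in S100g-rich cells, at 179 against 618. The median depth was 25619 UMIs in the S100g-rich cells and 21218 in the others. Across the 928 cells the correlation of S100g, on logged scaled counts, was 0.79 with Pitx1, 0.64 with Cited1, 0.59 with Car4, 0.29 with Rbp4 and -0.09 with Fabp3. The split was made on S100g after its values were seen and on the same cells that chose the group, so these values describe it.

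**Figure D4:**
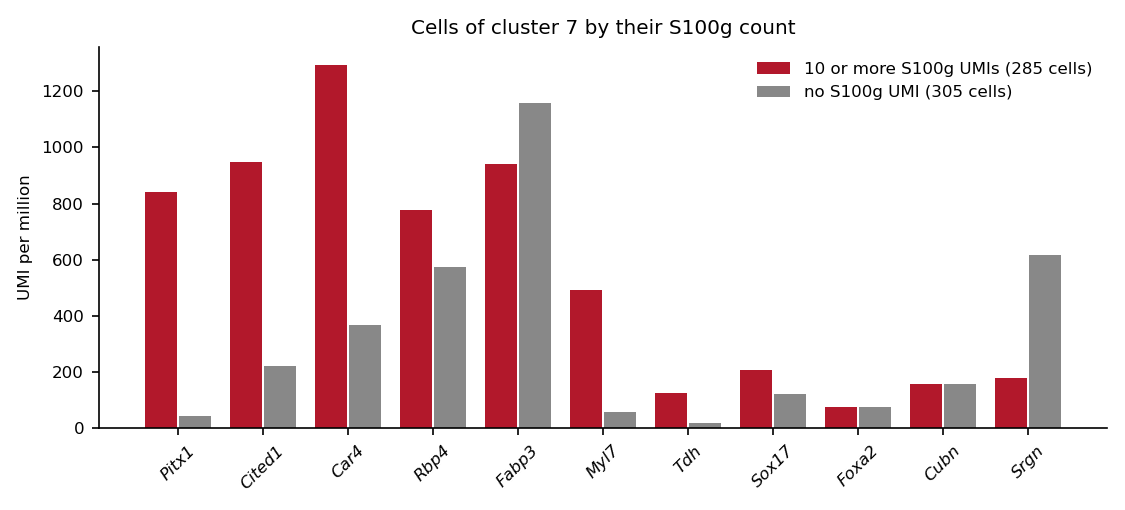
CPM of UMIs of 5 members and 6 other genes in the cells of cluster 7 with 10 or more S100g UMIs (red) and with none (grey). Pitx1 is at 841 against 44.3, whereas Fabp3 is at 943 against 1157 and Cubn is level.

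In the stage libraries of gonadal somatic cells the 6 members were read from counts. The libraries summed to 12694769 to 22259044 counts. Both E12.5 libraries, labelled female, held 205 and 170 counts of the Y-linked genes Ddx3y, Uty, Kdm5d and Eif2s3y, against 0 to 5 in each other library, and so went against their label. Contrasts with E12.5 rest on them, and E16.5 against E13.5 and P6w against E16.5 do not. The library names in the labels place P6w and replicate 2 of E16.5 on lane 1 and the others on lane 5, so that lane and stage cannot be told apart for P6w against E12.5. Per kilobase of transcript, Fabp3 was the most abundant member at each stage, at 25.4 to 158 CPM per kilobase, and Car4 and Pitx1 did not exceed 1.48 and 1.03.

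S100g was scarce at each stage, with 8 and 14 counts at E12.5, then 2 and 5 (E13.5), 4 and 2 (E16.5), and 24 and 17 (P6w). Car4 had 0 to 8 counts in 7 libraries and 68 in the second P6w library, and did not pass edgeR's filter. Pitx1 had 2 to 21 counts in 7 libraries and 62 in the second P6w library. Car4 and Pitx1 thus stood out in 1 library. That library held 3 genes with at least 50 counts and at least 10 times the count of the first P6w library, Car4 (68 against 2), Pitx1 (62 against 4) and Cyp26a1 (67 against 5), 3 of 11307 genes with at least 50 counts there. In the other direction 1 gene of 11358, the steroid dehydrogenase Hsd3b6, did so, at 640 against 35. These genes were sought after their values were seen.

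Rbp4 had the sharpest stage pattern, with 36 and 23 counts at E12.5, then 943 and 968 (E13.5), 106 and 78 (E16.5), and 15 and 39 (P6w). E13.5 stood apart from every other stage. In edgeR Rbp4 rose by 5.19 ± 0.30 (log2, SE) from E12.5 to E13.5 (adjusted p = 8.05e-08) and fell by 3.46 ± 0.26 from E13.5 to E16.5 on the log2 scale (adjusted p = 1.61e-07), and by 3.48 with only the E16.5 library of the same lane. The plasma protein genes moved with it: Alb stood at 47.5 and 42.1 CPM at E13.5 and at most 1.17 at other stages, Afp at 45.6 and 56.5 CPM and Ttr at 9.34 and 10.5 CPM, while Apoa1 was at 37.4 and 34.8 CPM at E13.5 and at 122 and 133 CPM at P6w. Their part in the Rbp4 level was not tested.

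Fabp3 stood at 20.8 and 21.0 CPM at E12.5, then at 43.5 and 39.4 (E13.5), 30.5 and 29.1 (E16.5), and 124 and 135 (P6w). P6w was far above the fetal stages, with a difference of 2.63 ± 0.14 from E12.5 (adjusted p = 4.29e-10) and 2.12 ± 0.13 from E16.5 (adjusted p = 3.31e-09), the latter 2.15 with the E16.5 library of the same lane. The fetal differences were smaller and depended on gene length: E13.5 against E12.5 was 0.99 (adjusted p = 3.92e-05) and 0.15 (adjusted p = 0.383) when a term for transcript length was added. Cited1 stood at 4.54 and 6.32 CPM at E12.5, then at 8.99 and 10.0 (E13.5), 16.7 and 29.1 (E16.5), and 19.2 and 30.1 (P6w). Cited1 rose by 2.07 ± 0.28 from E12.5 to E16.5 (adjusted p = 4.83e-05) and by 1.26 ± 0.27 from E13.5 to E16.5 (adjusted p = 0.00122), or by 1.62 and 0.82 with only the E16.5 library of the same lane, and P6w and E16.5 overlapped. From E12.5 to E13.5 Cited1 differed by 0.81 (adjusted p = 0.0323), and by 0.25 with the length term.

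**Figure D5:**
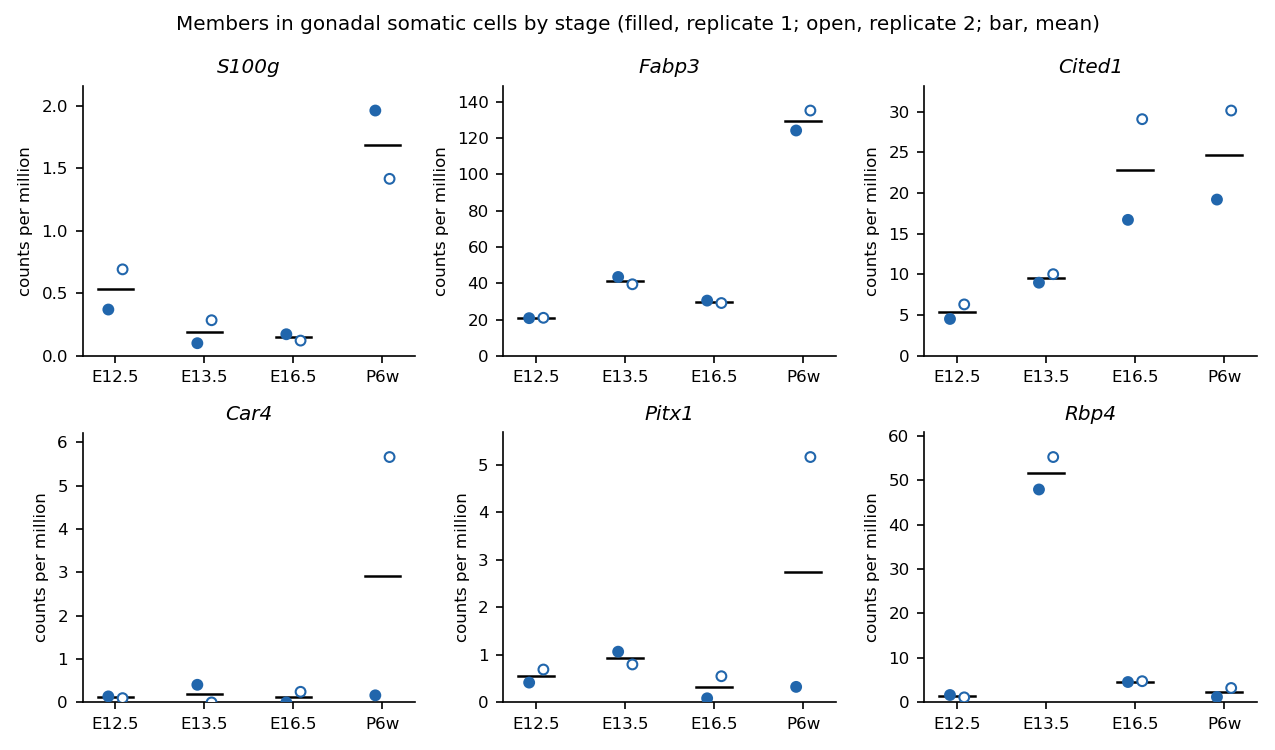
CPM of the 6 members in the 8 stage libraries (filled, replicate 1; open, replicate 2; bar, mean), each panel on its own axis from 0. Rbp4 peaks at E13.5, Fabp3 at P6w, and the P6w points of Car4 and Pitx1 lie far apart.

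The counts of members called in edgeR were close to what all genes showed. From E12.5, 3 of 5 tested members were called at E13.5 (45.9% of 16398 genes), 3 of 5 at E16.5 (37.6%) and 4 of 5 at P6w (52.9%). At E16.5 against E13.5 the count was 3 of 5 (54.1%), and at P6w against E16.5 it was 4 of 5 (56.1%). S100g at P6w differed from E16.5 by 3.42 ± 0.78 (adjusted p = 0.00168), 3.71 with the E16.5 library of the same lane, on at most 24 counts, and from E12.5 by 1.66 (adjusted p = 0.0455), with an adjusted p of 0.139 by DESeq2. Pitx1 at P6w, 2.30 above E12.5 (adjusted p = 0.0434) and 3.19 above E16.5 (adjusted p = 0.0126), stood at -0.75 and 0.13 without the second P6w library, and at 2.30 above E16.5 within lane 1, where it was no longer called. In the families, 6 of 16 carbonic anhydrases and bicarbonate transporters were lower and 3 higher at P6w than at E12.5, Car14 rising by 5.74 and Car2 falling by 5.60 on the log2 scale. Of 10 genes of epithelial calcium transport 4 were lower and 2 higher, with Calb1 at -3.91 and the vitamin D receptor gene Vdr at -3.67, and the fatty acid transporter gene Cd36 rose by 4.44, 1 of 4 higher and 2 lower of 12.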

How the data were processed

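Reads were not realigned. Per the labels and the study's methods the authors aligned bulk reads to mm10 with Hisat2 and counted them on genes with featureCounts, and the authors deposited counts per gene symbol for the 8 stage libraries. FPKM per gene symbol were deposited by the authors for 31 libraries, and the submitters' processing notes also name RSEM without saying for which file. The deposited UMI counts of the 10x library came from Cell Ranger on mm10. The FPKM steps gave whole fragments (tolerance 0.05) for 95.6% of values. A table with 10 columns that match no sample was not used here, nor were the libraries of primordial germ cells.

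The members, lists and alternatives were chosen with earlier results of these data known. FPKM were tested with limma 3.58.1 (trend) on log2(FPKM + 1), for genes of at least 1 FPKM in at least 3 (15 libraries of days and E12.5_GC) or 2 libraries (16 treatment libraries, or all 31). Stage counts were tested with edgeR 4.0.16 (filterByExpr, TMM, quasi-likelihood) in R 4.3.3, with DESeq2 1.42.0 as an alternative. p values were Benjamini-Hochberg adjusted over all genes tested. The common dispersion of the stages was 0.0172. The 10x counts were clustered with scanpy 1.11.5 (2000 variable genes, 20 components, 20 neighbours, Leiden resolution 0.5, genes in at least 3 cells), with no doublet step, so doublets may remain. Genes named beside the members were the 3 nearest by Pearson r (among genes reaching 5 FPKM in 2 or more libraries), the 10 leading genes of a cluster (in at least 20% of its cells), up to 3 called genes of a list, and others picked after their values were seen. Some genes that these rules name are not reported here. The limma fits of days and treatments, the edgeR fit of the stages with and without the length term, and the clustering were tested on simulated data. The other procedures were not. Positions were from GENCODE vM21 and promoters from RefSeq, which matched 5 of the members.

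The deviations of same-numbered libraries had a correlation over 0.1 in 9 of 30 pairs among days, 14 of 56 among treatments and 0 of 12 among stages. Its median was 0.028 among days (-0.43 to 0.39), 0.016 among treatments (-0.42 to 0.21) and 0.0062 among stages (-0.040 to 0.067). These values do not settle whether same-numbered libraries share a source. Replicates differed by more than sampling noise in every group.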

Additional observations from a re-analysis of the deposited data

Results flagged for a closer look

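The effect of V580 on Fabp3 at 48 h differed from the sum of the effects of Vc and AM580 alone by -0.32 in log2(FPKM + 1) (SE 0.07, limma interaction, adjusted p = 0.0152), which is under 2-fold. The edgeR fit on recovered fragments also gave -0.32, with an adjusted p of 0.0874, so the interaction passed the threshold in limma only. AM580 alone gave 55.3 and 55.0 FPKM of Fabp3 and V580 41.3 and 38.4 FPKM, which is another contrast than the interaction.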

How the results depend on the processing

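Of the log2 fold changes of single members under the alternatives tried, 929 kept their side of the threshold, 41 gained a call and 34 lost one. Another 2 that were called turned direction. Fabp3 at E16.5 against E13.5 was 0.14 with a length term. Pitx1 at P6w against E12.5 was -0.75 without replicate 2 of P6w and up to 3.20 with other single libraries left out. Uncalled values that changed sign are counted among the 929. An example is Cited1 at P6w against E16.5, which was 0.11 and stood at -0.24 without replicate 1 of E16.5. Without the 2-fold limit, more members were called in the treatments, given here with the share of all genes called. The count went from 0 to 2 for AM580_48h against AM580_24h (65.7%) and against Con_48h (57%). It did the same for V580_48h against V580_24h (66.8%), Vc_48h (53.8%) and AM580_48h (19.2%). It went from 0 to 1 for Con_48h against Con_24h (66%) and Vc_48h against Vc_24h (67.7%). It did so too for Vc_24h (13.6%) and V580_24h (29%) against Con_24h and V580_24h against Vc_24h (16.9%). V580_48h against Con_48h (57.1%) and the 48 h interaction (3.61%) likewise went from 0 to 1. Members called also went from 1 to 3 for V580_D10 against V580_D8 (34.5%) and for V580_D4 against V580_48h (74.1%). AM580_48h against Con_48h gave 1 with a pseudocount of 0.1, with quantile normalization and with edgeR on recovered fragments (1039 of 11890 genes called). V580_D4 against V580_48h gave 3 with that pseudocount and with those fragments (3567 of 12517 genes called), a fit chosen after seeing the data. These treatment counts are of Fabp3 and Cited1; the same fit also called Pitx1, which limma did not test, for AM580_48h and V580_48h against Con_48h and for Con and Vc between the 2 times. E13.5 against E12.5 gave 1 in place of 3 at 2-fold. With a replicate block, P6w against E12.5 gave 2 in place of 4 and V580_D4 against V580_48h gave 2 in place of 1; the libraries share only a number, and the block moved no other count by over 1.5 times. Leaving out 1 library at a time gave 2 to 4 for P6w against E12.5, 0 to 1 for V580_D10 against V580_D8, and 1 to 3 for V580_D4 against V580_48h. The cause of these changes was not tested. Counts given here without a number for all genes cannot be set against a background. The cluster richest in the members held 6.14% of cells at a resolution of 0.3 and 5.67% when the members were left out of the variable genes, against 6.59%. S100g, Car4 and Pitx1 in the stages were limited by counts under 70, and all groups by 2 or 3 libraries.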

Other observations

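Other markers rose in bulk from V580_D4 to V580_D6, when 5.08% of all genes were called in limma. On the log2 scale the mesothelial marker Upk1b rose by 2.81, the interstitial collagen gene Col3a1 by 2.29, and the gonadal markers Wnt4, Gata4 and Amhr2 by 3.05, 1.60 and 1.58. The endothelial markers were mixed. The receptor gene Kdr rose by 3.20 and Cdh5 by 1.54, Tie1 stood at -1.99, and the median of the 5 tested was 0.04. Col3a1 and Col1a1 rose again in both later steps, by 1.69 and 1.70 from V580_D6 to V580_D8 and by 1.48 and 1.47 from V580_D8 to V580_D10. Amhr2, the receptor gene for anti-Müllerian hormone, rose by 1.92 from V580_D6 to V580_D8 and fell by 1.97 from V580_D8 to V580_D10.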
